A study of Mus musculus with 6 samples.

Results

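The genes described here encode the enzymes, membrane proteins and proton pump of the lysosome, the acidic compartment in which cells break down proteins, sugars and lipids. They were given as a list of 34 gene symbols, and each was read from the probe set with that symbol alone that had the highest mean over the arrays. Of these, 33 were measured among 18193 genes. No probe set carries the symbol Cd63 alone in the annotation used, so this tetraspanin gene is not analysed here. The study compared mouse mesenchymal stem cells that received pulsed terahertz radiation for 12 h with control cultures placed next to them and left unexposed. Terahertz waves lie between microwaves and infrared light, and the source here was broadband around 10 THz, with 35 fs pulses repeated at 1 kHz and a mean power of 1 mW per cm2. Both groups were held at 26 to 27 °C, and RNA was taken straight after exposure. Both had also received a fat-inducing mix, renewed 48 h before exposure, of rosiglitazone (1 µM), insulin (5 µg/ml), the phosphodiesterase inhibitor IBMX (100 µM) and dexamethasone (1 µM) in medium with 5% serum. The cells were of a commercial supply, and the labels do not state their strain, passage or clonality. There were 3 independent experiments, each with 1 irradiated and 1 control culture, hence 6 Affymetrix arrays.

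Lysosomal hydrolases are made in the endoplasmic reticulum, tagged with mannose phosphate in the Golgi and sorted to late endosomes, and most work only at low pH. The pH is set by the vacuolar proton pump, whose peripheral V1 sector splits ATP and whose membrane V0 sector moves protons. Heavily glycosylated membrane proteins such as Lamp1 line the compartment. The transcription factor Tfeb raises many of these genes together when nutrients are short or lysosomes are stressed. All cells carry lysosomes, but macrophages and osteoclasts hold more of them and use some cathepsins and pump isoforms that other cells make little of.

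Levels and differences below are on the log2 scale of the array signal, and array medians lay between 4.75 and 4.80. With 3 pairs of arrays, their number limits the precision. All 33 measured genes had a group mean of at least 6, the level below which a probe set is called dim here. Of the 8 stromal markers measured, 7 reached that level, among them Col1a2, a collagen I chain, at 13.31 to 13.64. Thy1, a defining surface marker of mesenchymal stem cells, did not, at 3.76 to 4.26. All 7 fat cell markers reached it. So did 12 of 13 macrophage markers, including the lysozyme gene Lyz2 at 14.10 to 14.26 and the receptor gene Csf1r at 12.38 to 13.54, while Cd163 was dim. Of 8 osteoclast markers 3 reached it, Mmp9 at 9.67 to 10.12, Acp5 at 6.56 to 7.61 and Nfatc1 at 6.30 to 6.61. Calcr and Ocstamp were dim on every array, at 2.28 to 3.57, and Dcstamp, Itgb3 and Oscar were dim too. In such bulk RNA, fewer cells of a type and less RNA per cell cannot be told apart.

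Lysosomal gene expression in irradiated cultures lay close to that of the controls for most genes. Log2 differences, irradiated minus control, ran from -0.51 for the pump gene Atp6v0d2 to 0.22 for the protease gene Ctsc, with SEs between 0.09 and 0.14 in the paired limma fit. In 21 of the 33 genes the mean difference was smaller than 0.1. No gene had a Benjamini-Hochberg adjusted p under 0.05 among the 45037 probe sets tested, and 0% of all probe sets did. The limma adjusted p of the 33 genes ran from 0.53 to 0.983.

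Small differences were more often negative than positive. The median over the 33 genes was -0.04, against 0.01 over all genes, and 24 of 33 were lower on average, against 48% of all genes. Lower values in all 3 experiments were seen for 12 of 33, where 15.1% of all genes and 18.7% of genes at a level of at least 6 showed that, and higher values in all 3 for 2 of 33, where the background was 15.7% and 18.6%. The 12 were Ctsa, Ctss, Ctsz, Lgmn, Glb1, Gusb, Neu1, Psap, Lipa, Grn, Atp6v0d2 and Atp6v1a, and the 2 were Ctsh and Scarb2. For Ctsa, Ctsz, Neu1, Psap, Lipa and Grn another probe set did not keep that sign in every experiment. A second Scarb2 probe set was lower in all 3, and a second Ctsh probe set in experiments 1 and 2. With the mean over a gene's probe sets 11 genes were lower in all 3 experiments, where 14.4% of all genes were. In that setting 0 of the 33 genes were higher in all 3. The shift was uneven, with medians of -0.12, -0.05 and -0.01 in experiments 1, 2 and 3. Fat cell markers were lower in 6 of 7, with a median of -0.03 and medians of 0.18, 0.01 and -0.30 in the 3 experiments. Stromal markers were lower in 4 of 8 and osteoclast markers in 3 of 8. Macrophage markers were lower in 12 of 13, with a median of -0.08 and medians of -0.20, 0.08 and -0.12 in the 3 experiments. The mean level of the macrophage markers was 10.39, 10.81 and 11.01 on the control arrays and 10.20, 10.85 and 10.74 on the irradiated arrays, and the part of these cell types in the lysosomal values was not tested.

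At an unadjusted limma p under 0.05 there were 2 of 33 genes, Atp6v0d2 and Neu1, both lower. Over all genes 8.31% met this threshold, 4.61% lower, so the count is near the background. It was 1 without the replicate block (Gla), where 4.85% of all genes met the threshold in either direction, and 4 without experiment 3 (Gla, Atp6v0d2, Atp6v1a and Atp6v1b2), where 8.51% did. With an intensity trend and a robust prior it was 8 of 33, all lower, where 9.87% of all genes met it in either direction. Of the 33 genes 22 had further probe sets, 38 in all, and 21 of the 29 at a level of at least 6 had the sign of the probe set used. The irradiated and control ranges did not overlap for a single gene, Glb1, where 9.96% of all genes had groups apart.

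**Figure D1:**
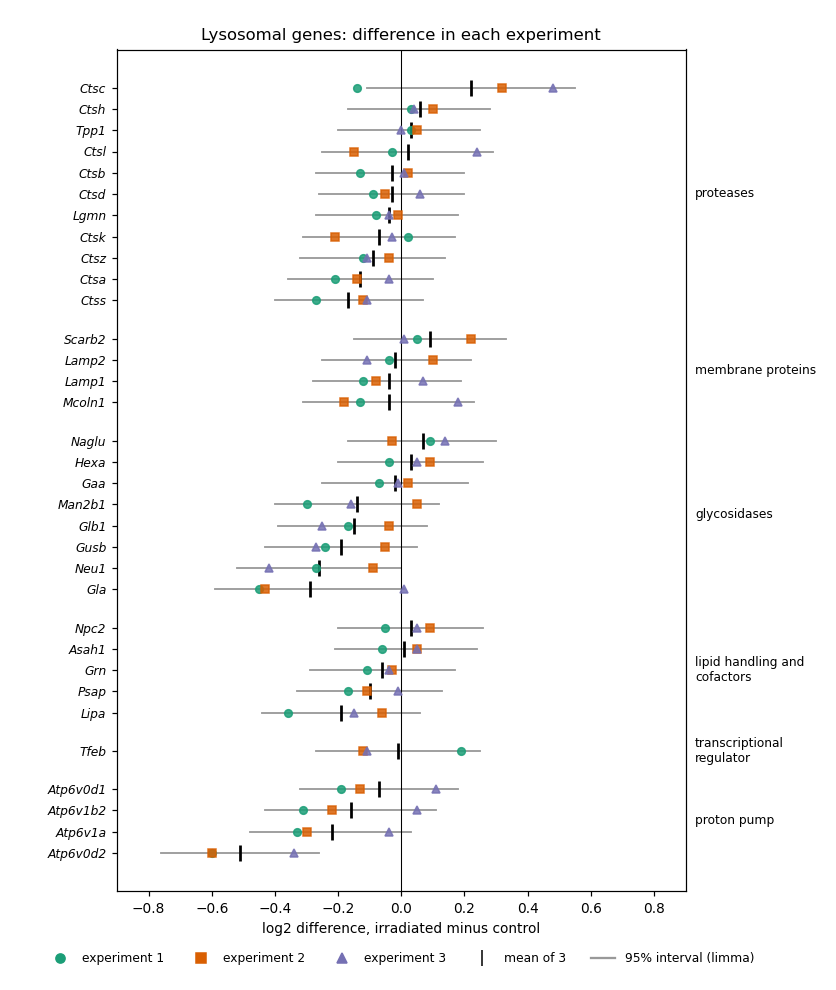
Log2 difference, irradiated minus control (x axis), for each of the 33 measured lysosomal genes (rows, grouped by role). Coloured symbols are the 3 experiments, black ticks their mean and grey lines the 95% interval from limma; the symbols of experiments 1 and 2 coincide for Atp6v0d2, at -0.60. Most means lie within 0.1 of zero and Atp6v0d2 lies lowest, at -0.51.

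Among the 4 pump genes, all were lower on average, where 48% of all genes were, and the difference was widest in Atp6v0d2. This gene encodes the second isoform of the V0 d subunit, which couples the sectors of the pump and is best known from osteoclasts and macrophages. Its control values were 9.31, 10.10 and 10.56 in experiments 1, 2 and 3, and its irradiated values were 8.71, 9.50 and 10.22. Each irradiated culture lay below its own control, but the groups overlapped because the experiments lay further apart than the pairs. The mean difference was -0.51 ± 0.10 (SE, n = 3 pairs), 1.43-fold lower, with a limma p of 0.00212 and an adjusted p of 0.53. Without the replicate block the limma p was 0.24. A second probe set of this gene gave -0.74, -0.87 and -0.22 in experiments 1, 2 and 3, and -0.61 ± 0.14 (SE) on average.

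Atp6v0d1 encodes the d isoform that nearly all cells use. It read 11.97, 11.89 and 11.85 in controls and 11.78, 11.76 and 11.96 in irradiated cultures. The groups overlapped, with a difference of -0.07 (95% interval -0.32 to 0.18). The V1 subunits that bind and split ATP showed a like split between experiments. Atp6v1a, the catalytic A subunit, differed by -0.33, -0.30 and -0.04, a mean of -0.22 ± 0.11 (SE). Atp6v1b2, the B subunit of most cells, differed by -0.31, -0.22 and 0.05, a mean of -0.16 ± 0.11 (SE). For the probe sets used, both genes lay below control in experiments 1 and 2 and close to it in experiment 3. Another probe set of Atp6v1b2 was lower in all 3 experiments, at -0.27, -0.53 and -0.23, a mean of -0.34 ± 0.11 (SE).

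**Figure D2:**
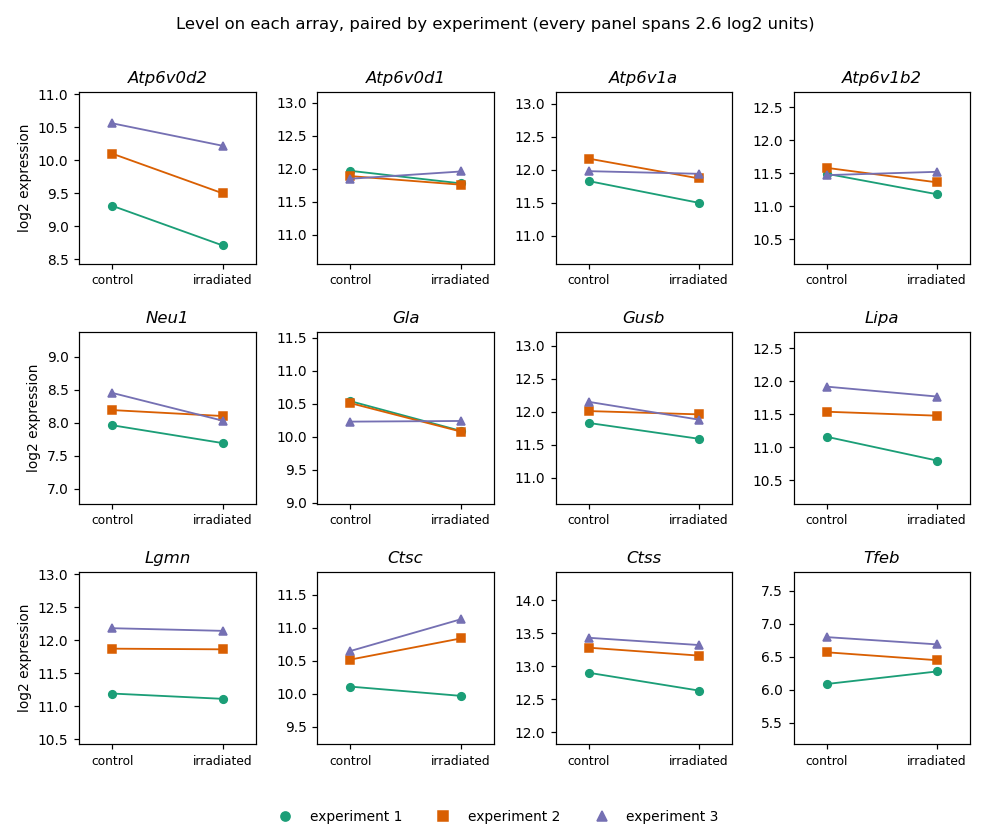
Log2 expression (y axis) of 12 lysosomal genes on each control and irradiated array, with lines joining the cultures of one experiment; every panel spans the same range. Atp6v0d2, Atp6v1a, Neu1, Gusb, Lipa, Lgmn and Ctss decline along all 3 lines. For Atp6v0d2, Lgmn, Ctss and Lipa the gap between the lines of experiments 1 and 3 exceeds the slopes.

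The 8 sugar-cleaving enzymes had a median difference of -0.14, and medians of -0.21, -0.03 and -0.08 in experiments 1, 2 and 3. Of the 8, 3 were lower in all 3 experiments, where 15.1% of all genes and 18.7% of genes at a level of at least 6 were. None was higher in all 3, where 15.7% and 18.6% were. Neu1, the lysosomal sialidase, read 7.96, 8.19 and 8.45 in controls and 7.69, 8.10 and 8.03 in irradiated cultures. The groups overlapped, and each irradiated value was below its pair. The mean difference was -0.26 ± 0.11 (SE, n = 3 pairs), with a limma p of 0.0477 and an adjusted p of 0.615. The other probe sets of Neu1 were dimmer and did not point one way, at -0.18 ± 0.13 (SE) and 0.34 ± 0.10 (SE). The mean over the 3 probe sets differed by -0.03.

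Gla, the alpha-galactosidase that is lost in Fabry disease, split by experiment. It differed by -0.45 and -0.43 in experiments 1 and 2 and by 0.01 in experiment 3, a mean of -0.29 ± 0.12 (SE). Its control values were 10.54, 10.51 and 10.23, and its irradiated values 10.09, 10.08 and 10.24. With the mean over its probe sets Gla differed by -0.17. On the probe set used, the control of experiment 3 was about as low as the irradiated cultures. Gusb, the beta-glucuronidase, differed by -0.19 ± 0.10 (SE), and its second probe set by -0.33 ± 0.09 (SE), both lower in all 3 experiments. Glb1, the beta-galactosidase, read 9.25, 9.18 and 9.33 in controls and 9.08, 9.14 and 9.08 in irradiated cultures, so that no values overlapped. The difference was -0.15 ± 0.10 (SE). Man2b1, a mannosidase, differed by -0.14, but its second probe set was higher in all 3 experiments, by 0.27 ± 0.12 (SE), and the mean over both was 0.07. Naglu, which degrades heparan sulfate, Hexa, the alpha subunit of hexosaminidase A, and Gaa, the glycogen-digesting glucosidase, differed by 0.07, 0.03 and -0.02.

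The 11 proteases had a median of -0.03, and 8 of them differed by less than 0.1. Ctsd, the main aspartic protease, read 13.37, 13.53 and 13.53 in controls and 13.28, 13.48 and 13.59 in irradiated cultures, a difference of -0.03 (95% interval -0.26 to 0.20). Ctss, a cysteine protease of antigen-presenting cells, read 12.90, 13.28 and 13.43 in controls and 12.63, 13.16 and 13.32 in irradiated cultures. It was lower in every pair, by a mean of -0.17 ± 0.10 (SE), with overlapping groups. Ctsk, the collagen-digesting protease of osteoclasts and fibroblasts, read 10.32, 10.26 and 10.11 in controls and 10.34, 10.05 and 10.08 in irradiated cultures. Its difference was -0.07 (95% interval -0.31 to 0.17), with overlapping groups and no single direction.

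Ctsc, which activates serine proteases of granules, had the highest mean difference and did not keep 1 sign, at -0.14, 0.32 and 0.48 in the 3 experiments. Ctsa, a carboxypeptidase that also shields Neu1 and Glb1 from breakdown, differed by -0.13 and was lower in all 3 experiments. A second, fainter probe set of Ctsa differed by -0.51, -0.56 and 0.25 in experiments 1, 2 and 3. Ctsz, a carboxypeptidase of the cathepsin family, differed by -0.09. Ctsl and Ctsb, broad cysteine proteases, differed by 0.02 and -0.03, and Ctsh, an aminopeptidase, by 0.06. A second probe set of Ctsh differed by -0.09 ± 0.12 (SE). Ctsb read 13.62 to 13.95, near the top of the array scale, where the brightest probe sets reached 14.41 to 14.53 and a difference may be compressed. Its less bright probe sets differed by -0.07 ± 0.11 (SE), -0.01 ± 0.10 (SE), 0.08 ± 0.24 (SE) and -0.13 ± 0.10 (SE). Lgmn, which cuts after asparagine and matures other cathepsins, and Tpp1, which removes tripeptides, differed by -0.04 and 0.03.

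Enzymes and cofactors of lipid breakdown were close to control. Lipa, the acid lipase that frees cholesterol and fatty acids from lipoprotein lipids, differed by -0.36, -0.06 and -0.15, a mean of -0.19 ± 0.11 (SE). Its other probe sets differed by -0.38 ± 0.11 (SE) and -0.13 ± 0.12 (SE). Psap, the precursor of the saposins that present lipids to hydrolases, differed by -0.10. Asah1, the acid ceramidase, and Npc2, which carries cholesterol within the lysosome, differed by 0.01 and 0.03. Another probe set of Npc2, nearly as bright, was higher in all 3 experiments, by a mean of 0.02 ± 0.09 (SE). A fainter probe set of Npc2 was lower in all 3 experiments, by a mean of -0.16 ± 0.11 (SE). A dim probe set of the gene differed by 0.12 ± 0.14 (SE). Grn, the progranulin gene, read 12.84, 12.98 and 13.00 in controls and 12.73, 12.95 and 12.96 in irradiated cultures. Its groups overlapped, and the difference was -0.06 (95% interval -0.29 to 0.17).

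The structural membrane proteins gave a narrow range on the probe sets used, with means from -0.04 to 0.09. Lamp1 read 13.18, 13.28 and 13.30 in controls and 13.06, 13.20 and 13.37 in irradiated cultures. The groups overlapped, with a difference of -0.04 (95% interval -0.28 to 0.19). Lamp2 differed by -0.02, and its 3 other probe sets by -0.09, 0.05 and 0.09. Scarb2, the receptor that brings glucocerebrosidase to the lysosome, differed by 0.09, but its second probe set was lower in all 3 experiments, by a mean of -0.17 ± 0.11 (SE). Mcoln1, the calcium channel of the lysosomal membrane, read 8.84, 8.83 and 8.71 in controls and 8.71, 8.65 and 8.89 in irradiated cultures. It had overlapping groups and a difference of -0.04 (95% interval -0.31 to 0.23).

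Tfeb read 6.09, 6.57 and 6.80 in controls and 6.28, 6.45 and 6.69 in irradiated cultures, and the groups overlapped. The difference was -0.01 (95% interval -0.27 to 0.25), positive in experiment 1 and negative in the other two. Tfeb and its relatives bind E-box letters CACGTG, and lysosomal promoters are known for a longer form of them. Promoter windows of 250 bases before to 50 after the start, from RefSeq (GRCm38.p6), were matched by symbol for 29 of the 34 listed genes. Ctsb, Ctsh, Asah1, Atp6v0d2 and Atp6v1b2 have no entry in the table. The windows below hold the palindrome TCACGTGA, in capitals, in the sequence read 5′ to 3′ on the gene's strand, with 16 bases on each side. The last line shows the 4 copies of CACGTG in the Lamp1 window. They are shown because these letters were more frequent in the lysosomal promoters than in the whole table.

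Ctsa, chr2:164833744-164833800, plus strand: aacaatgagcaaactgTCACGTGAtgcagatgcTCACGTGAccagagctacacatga
Ctsd, chr7:142387903-142387942, minus strand: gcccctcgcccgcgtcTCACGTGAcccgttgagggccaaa
Gla, chrX:134601177-134601249, minus strand: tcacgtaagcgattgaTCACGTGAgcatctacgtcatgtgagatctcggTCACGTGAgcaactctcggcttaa
Mcoln1, chr8:3500457-3500496, plus strand: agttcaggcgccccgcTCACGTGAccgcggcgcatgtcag
Atp6v0d1, chr8:105566045-105566084, minus strand: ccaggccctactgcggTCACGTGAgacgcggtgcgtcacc
Atp6v1a, chr16:44139368-44139407, minus strand: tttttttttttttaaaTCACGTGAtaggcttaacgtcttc
Lamp1, chr8:13159084-13159167, plus strand: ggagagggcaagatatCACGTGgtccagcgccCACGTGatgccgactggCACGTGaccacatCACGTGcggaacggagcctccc

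The palindrome starts 99 bases before the transcription start in Ctsd, 46 in Mcoln1, 132 in Atp6v1a and 4 in Atp6v0d1. TCACGTGA reads the same on both strands and contains CACGTG, so the counts overlap. It was present for 6 of 29 lysosomal genes (20.7%), against 1.12% of the 27025 genes in the table, and CACGTG for 12 of 29 (41.4%), against 8.09%. These matches are a description of letters and not of binding. The 6 genes with TCACGTGA had a median difference of -0.10 (-0.29 to -0.03) and the 22 measured genes without it -0.04 (-0.26 to 0.22). For CACGTG the medians were -0.04 over 12 genes and -0.07 over 16. Another 8-letter form, GTCACGTG, which also contains CACGTG, was present on either strand for 9 of 29 genes (31%), against 2.55%. Its medians were -0.04 over the 9 genes with it and -0.06 over the 19 measured genes without it.

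Other genes of the pathway were given by 7 lists with 110 members, of which 102 were measured. Over these the median difference was -0.04, with 69 lower and 33 higher, where 48% of all genes were lower on average. At an unadjusted limma p under 0.05 there were 5 lower and 1 higher, against 4.61% and 3.7% of all genes, and none passed adjustment. The count of 6 was 2 without experiment 1 and 2 without the replicate block, where 3.63% and 4.85% of all genes met the threshold. With an intensity trend and a robust prior it was 12, where 9.87% did. The other proton pump subunits leaned the same way on average as those above, with 12 of 14 lower and a median of -0.08. None of them met that threshold. Their medians were -0.13, -0.18 and 0.02 in experiments 1, 2 and 3. Lower in all 3 experiments were 3 of 14, where 15.1% of all genes and 18.7% of genes at a level of at least 6 were. Lysosomal surface regulators had a median of -0.06. There Tfe3, the closest relative of Tfeb, differed by -0.27 ± 0.10 (SE), and Lamtor1, the anchor of the Ragulator complex, by 0.29 ± 0.10 (SE), the 1 higher gene.

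Among the other hydrolases, with a median of -0.01 over 23 genes, Acp5, the tartrate-resistant acid phosphatase of osteoclasts and macrophages, had pair differences of -0.11, -0.31 and -0.65, a mean of -0.36 ± 0.13 (SE), and -0.21 without experiment 3. Dpp7, a dipeptidase, differed by -0.26 ± 0.11 (SE), and by -0.10 with the mean over its probe sets. Mcoln2, a channel related to Mcoln1, differed by -0.43 ± 0.13 (SE) and was the single such gene among the 16 other membrane proteins. Uvrag, which acts in autophagosome and endosome maturation, had pair differences of -0.49, -0.26 and -0.64. Their mean was -0.46 ± 0.11 (SE), with a limma adjusted p of 0.536. It was the single such gene among 20 autophagy and fusion genes, whose median was -0.01. Sorting genes (median -0.04 over 10) and cathepsin inhibitors (median -0.01 over 3) held none.

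**Figure D3:**
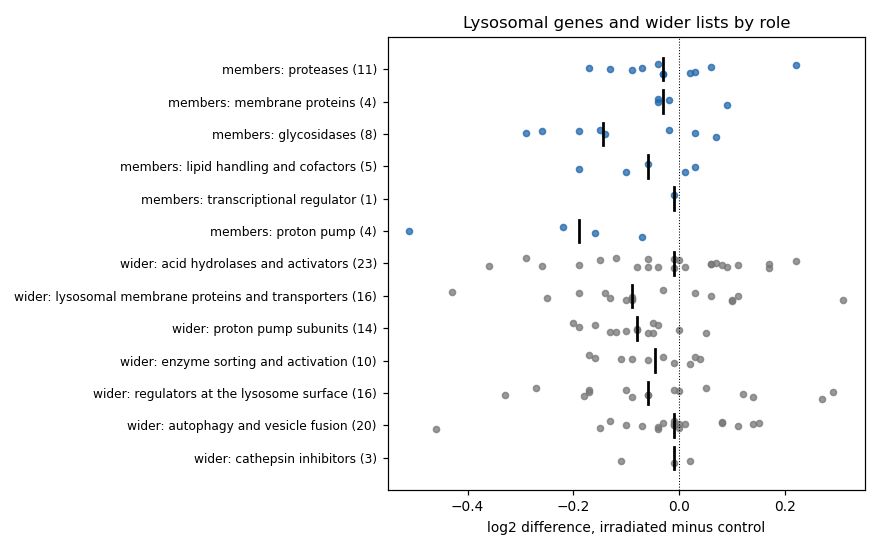
Log2 difference, irradiated minus control (x axis), of each measured gene in the lysosomal roles (blue) and the wider lists (grey), with the number of genes in brackets and black ticks at the medians. The pump and glycosidase medians, -0.19 and -0.14, lie lowest among the roles, and the pump is the single role of several genes with no value above zero.

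For 30 of the 33 genes the widest gap between the means of 2 experiments exceeded the irradiation difference, as it did for 78.4% of genes at a level of at least 6. Both cultures of experiment 1 lay below all 4 others in 19 of 33 genes, where 14.7% of all genes showed that. By limma's moderated F for the experiment, a test chosen after seeing the data, 9 genes had an unadjusted p under 0.05. The threshold was met by 14.8% of all genes, and by 1699 of the 9302 genes at a level of at least 6. On the probe sets used, all 9 were higher in experiment 3 than in experiment 1, and 7.49% of all genes met both conditions. None had an adjusted p under 0.05, against 2 of 45037 probe sets (0.00444%). The count of 9 was 1 without experiment 1 and 18 with an intensity trend and a robust prior. The share of all genes in these settings is not given here, so these counts have no background.

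The widest gap was in Atp6v0d2, 1.38 ± 0.13 (SE) higher in experiment 3 than in experiment 1, or 2.6-fold (F adjusted p = 0.0702). Lgmn was next, with 11.19, 11.87 and 12.18 in controls and 11.11, 11.86 and 12.14 in irradiated cultures. Its gap was 1.01 ± 0.11 (SE), 2.01-fold, with the same adjusted p, while each irradiated value lay within 0.08 of its control. Lipa, Ctsc, Man2b1, Ctss and Tfeb followed, with gaps of 0.86, 0.85, 0.78, 0.61 and 0.56. Hexa and Neu1 had gaps of 0.37 and 0.41. The other probe sets of Neu1, both dim, had gaps of -0.53 ± 0.16 (SE) and 0.36 ± 0.13 (SE). In contrast Ctsk, Ctsl, Gaa and Npc2 had gaps of -0.24, -0.05, -0.08 and 0.00. For Ctsb the gap was 0.26 on the probe set used and 0.87, 0.62, 0.18 and 0.41 on its less bright ones.

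Macrophage markers also lay lowest in experiment 1 on average, and the 3 widest gaps are given first. Mrc1, the mannose receptor, was higher in experiment 3 by 1.38 ± 0.16 (SE), Csf1r by 0.96 ± 0.13 (SE) and Adgre1, a macrophage surface receptor, by 0.79 ± 0.13 (SE). Of the 13 markers 12 were higher in experiment 3, with a median gap of 0.57, against 0.21 over the lysosomal genes and 0.02 over all genes. The exception was Itgam, at -0.07 ± 0.18 (SE). Lyz2 and the dim Cd163 had narrow gaps of 0.12 ± 0.11 (SE) and 0.23 ± 0.29 (SE). Stromal markers did not go one way, with 4 of 8 higher in experiment 3 and a median of -0.07, and ran down to -1.12 ± 0.12 (SE) for the surface enzyme gene Nt5e. The part of macrophage transcripts in the lysosomal gaps was not tested, and the experiment cannot be told apart from anything else that varied between experiments.

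**Figure D4:**
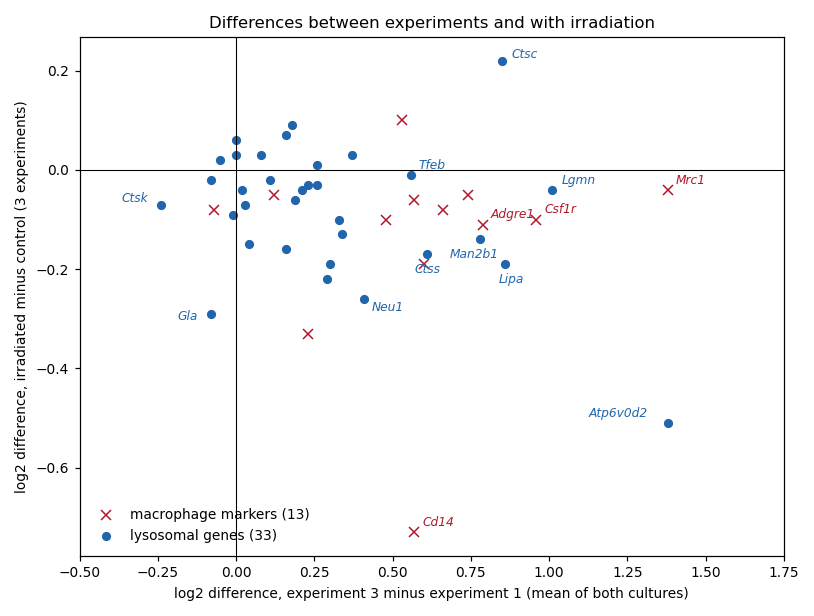
Log2 difference between experiments 3 and 1 (x axis, mean of both cultures) against the log2 difference, irradiated minus control (y axis), for the 33 lysosomal genes (blue circles) and 13 macrophage markers (red crosses). Atp6v0d2, Lgmn, Lipa and Ctsc lie far to the right with markers such as Mrc1 and Csf1r, while most irradiation differences stay near zero.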

How the data were processed

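RNA from 3 irradiated and 3 control cultures (200 ng each) was labelled and hybridised to Affymetrix mouse arrays, per the labels' protocols. The authors deposited log2 values for each probe set with 2 decimals, made with RMA and the affy package, per the submitters' processing notes. Versions, and which arrays were normalized together, are not given in these sources. RMA usually brings arrays to a common distribution, in which a shift of all genes cannot be seen.

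The groups were compared by lmFit and eBayes of limma 3.58.1 in R 4.3.3, two-sided, on 45037 probe sets (64 array controls left out), with Benjamini-Hochberg adjustment and the experiment as a block. The fit was tested on simulated data. The block follows the design text, which pairs each irradiated culture with its adjacent control. Deviations from group means correlated at 0.787, 0.028 and 0.324 in pairs 1, 2 and 3. The second irradiated culture correlated at 0.552 with the third control, above its own. Of the probe sets, 34945 carry 1 symbol, 932 several and 9160 none here. The members and lists were chosen with earlier results of these data known. All measured members are named. Values on every array are given for those at an unadjusted p under 0.05 and for a fixed set of 10, except Cd63, which was not measured. The wider lists give up to 3 genes each at that threshold. The array values of Gla, Glb1 and Lgmn, and the marker genes named, were chosen after their values were seen. The fit was repeated with no block or a random one, without each experiment, after quantile normalization or median centring, without dim probe sets, with an intensity trend and robust prior, and on the mean over a gene's probe sets. Figures were drawn with matplotlib 3.10.9.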

Additional observations from a re-analysis of the deposited data

How the results depend on the processing

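Under the 10 alternative settings, no lysosomal gene had an adjusted p under 0.05. With the experiment as a random replicate block 2 probe sets of the whole table passed, neither of them the probe set used for a lysosomal gene. The 2 lysosomal genes at an unadjusted p under 0.05 (8.31% of all genes) became 1 without the replicate block (4.85%), 1 with a random block (8.43%), 1 after quantile normalization (8.35%) and 8 with an intensity trend and robust prior (9.87%). With an experiment left out they were 2 to 4, at 3.63%, 5.47% and 8.51% of all genes without experiments 1, 2 and 3. Genes of 1 sign in all experiments numbered 14, and 18 to 22 with an experiment left out, where fewer signs have to match. Without experiments 1, 2 and 3 in turn, 14, 15 and 19 of 33 were lower in every pair left. The shares of all genes were 23.2%, 27.2% and 27.3%. Higher in every pair left were 7, 3 and 3, for which no share of all genes is given here. The median stayed between -0.09 and -0.02 with an experiment left out. The wider lists' 6 genes became 2 without the block, 3 with a random block, 12 with the trend and robust prior, and 2 to 9 with an experiment left out. The shares of all genes in these settings are those given above for the lysosomal genes. Genes that differed between experiments numbered 9, then 18 with the trend and robust prior, and 1 to 10 with an experiment left out. The share of all genes that differed between experiments in those settings is not given here. Some differences near zero changed sign, and the cause was not tested. With the mean over probe sets Ctsh became -0.01, Lamp2 0.01, Scarb2 -0.04 and Man2b1 0.07, and after quantile normalization Asah1 and Tfeb came to 0.00 with the sign turned. With an experiment left out the ranges were -0.06 to 0.01 for Ctsb, -0.07 to 0.01 for Ctsd, -0.09 to 0.10 for Ctsl, -0.07 to 0.03 for Lamp2, -0.04 to 0.01 for Gaa, -0.01 to 0.05 for Asah1, 0.00 to 0.07 for Npc2, -0.16 to 0.02 for Mcoln1 and -0.12 to 0.04 for Tfeb. Atp6v0d2 stayed between -0.60 and -0.47.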
